A study of Mus musculus with 12 samples.

Results

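Natural killer (NK) cells and the closely related group 1 innate lymphoid cells (ILC1) are set apart by a small set of transcription factors, and the genes of 10 such factors were followed here: Eomes, Tbx21, Zfp683, Prdm1, Zeb2, Id2, Nfil3, Ikzf3, Runx3 and Ets1. They were chosen by name as factors of NK lineage and tissue residency, were found by symbol among the 56748 gene IDs of the count files, and each matched 1 ID. All 10 passed the filter on low counts and were among the 16016 genes tested.

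Mouse lymph node NK cells, isolated by sorting, gave 4 libraries in each of 3 groups. The tumor-free group came from nodes of C57BL/6J mice without tumor. Nodes bearing diffuse large B cell lymphoma, a malignancy of mature B cells, gave the lymphatic group, where the model spreads by the lymphatic system, and the hematogenous group, where it spreads by the blood. Genotype beyond the strain name, age, sex, the lymphoma line, the time after its transfer, the sorting gate and the number of mice behind a library were not stated in the labels, so that p-values measure the spread between these libraries, which may be technical.

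As background, NK cells and ILC1 arise from innate lymphoid progenitors under Nfil3, Ets1 and Id2, and the T-box factors Tbx21 (T-bet) and Eomes then set the mature program. Eomes is the factor that separates conventional NK cells from ILC1, which rely on T-bet. Zfp683, which encodes Hobit, and Prdm1, which encodes Blimp-1, are related zinc finger repressors that promote tissue residency by repressing genes of tissue exit, while Zeb2 acts beside T-bet in the last steps of maturation of circulating NK cells.

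Gene counts came to between 6654215 and 43494812 per library. Levels are given as CPM, the usual unit of counts relative to library size, with library sizes scaled by the TMM method, and a gene was called at an edgeR quasi-likelihood adjusted p (Benjamini-Hochberg over all tested genes) under 0.05. The balance of called genes over the whole table moved with the scaling: 84.7% of genes called in the lymphatic against the tumor-free libraries were higher, or 73.2% with library size alone, and 33.1% in the hematogenous against the lymphatic libraries, or 55.8% with library size alone. The latter setting moved the median log2 fold change of all genes in that comparison by 0.11. The share of reads assigned to genes was lower in all hematogenous libraries (55.4% to 65.5%) than in all others. It was 65.7% to 70.7% in tumor-free and 67.1% to 72.1% in lymphatic libraries. The part of this difference in the hematogenous comparisons was not tested. Hematogenous replicate 1 stood apart from its group. It was the highest or the lowest of the 4 hematogenous libraries for 9 of the 10 factors. Its assigned share was the smallest (55.4%, against 62.8% to 65.5% in the other hematogenous libraries). Tumor-free replicate 2, the shallowest library, was likewise the highest or lowest of its group for 9 of the 10. The values that rest on these libraries are given below with and without them.

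The label was checked against NK cell markers. The 13 NK marker genes outside the 10 factors, among them Ncr1, Klrb1c, Gzma and Prf1, were read in every group and summed to 15306 to 17787 CPM in tumor-free, 14074 to 18275 CPM in lymphatic and 9788 to 12098 CPM in hematogenous libraries. Each other cell type was read at a lower level, with 14 T cell markers at 614 to 834 CPM in tumor-free, 597 to 934 in lymphatic and 854 to 1138 in hematogenous libraries. The 15 B cell markers summed to 126 to 352, 277 to 795 and 280 to 488 CPM in the same order. No T or B cell marker stood at 0 counts in a whole group. In bulk RNA from sorted cells, fewer cells of a type and less RNA of a gene per cell cannot be told apart.

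**Figure D1:**
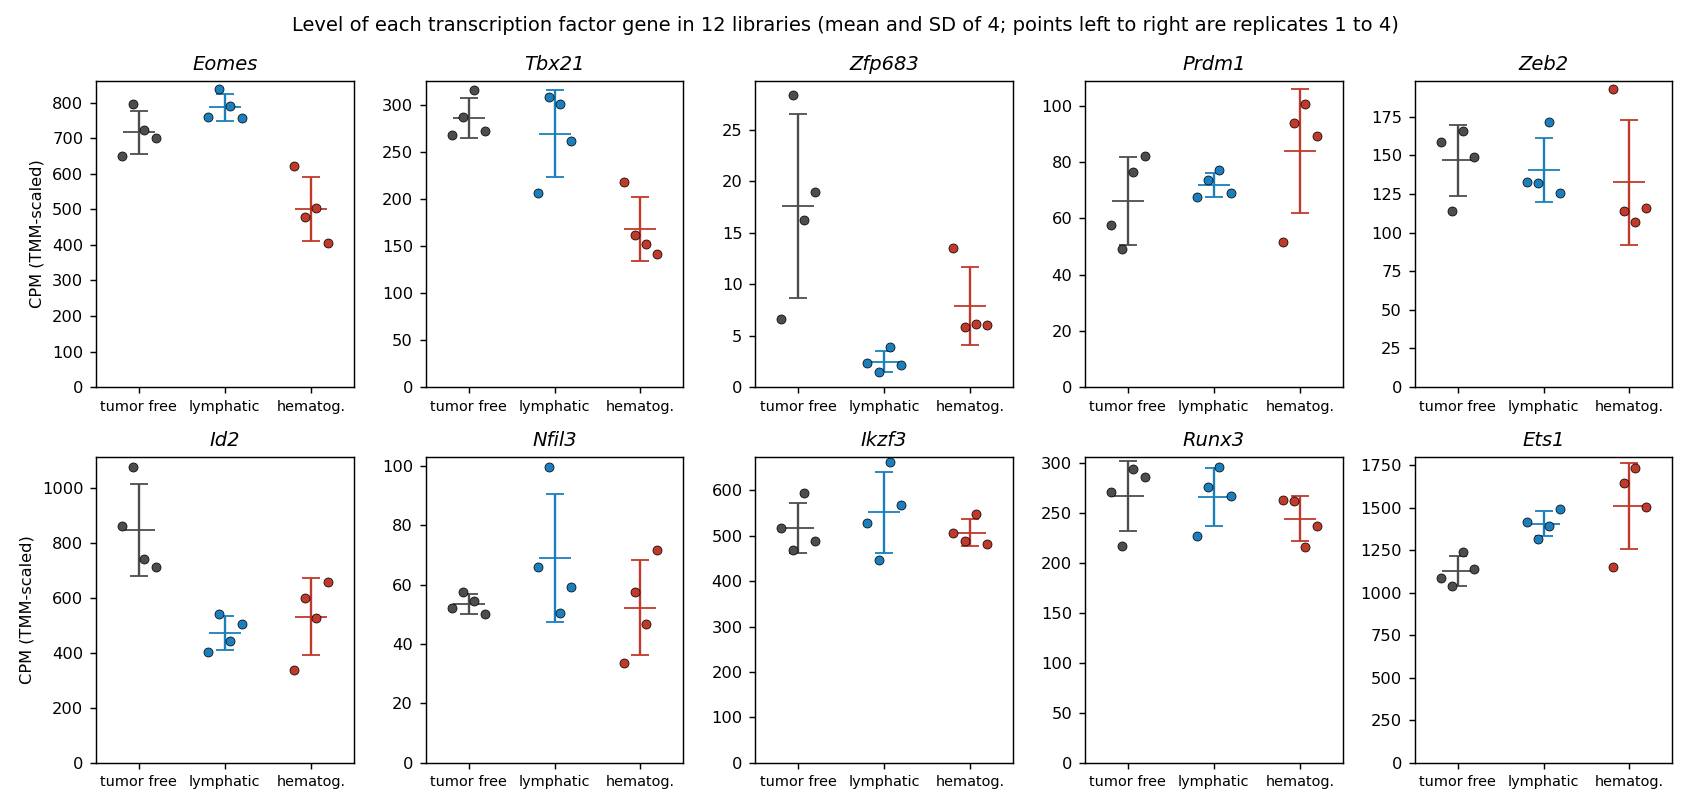
Level of the 10 factor genes in each of 12 libraries, in TMM-scaled CPM on axes that start at 0; points are libraries in replicate order, horizontal marks are group means and bars are SDs of 4. Zfp683 and Id2 are lower in all lymphatic than in all tumor-free libraries, and Eomes, Tbx21 and Id2 are lower in all hematogenous than in all tumor-free libraries.

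Levels of different genes were compared per length of exon, with the exons of all annotated transcripts of a gene merged. In tumor-free libraries Id2 stood first with 347 ± 68.1 CPM per kb (SD, n = 4), followed by Eomes with 173 ± 14.4, Ets1 with 133 ± 10.2 and Tbx21 with 115 ± 8.61 CPM per kb. Ikzf3, at 59.1 ± 6.34, and Runx3, at 53.4 ± 6.96 CPM per kb, overlapped in range. Nfil3 stood at 26.4 ± 1.59 CPM per kb. The lowest levels belonged to Zfp683, Prdm1 and Zeb2, at 12.0 ± 6.08, 11.9 ± 2.80 and 7.36 ± 1.14 CPM per kb, with overlapping ranges. The place of Zeb2 depends on its merged length of 19.9 kb, against 1.47 kb for Zfp683. Before division by length they stood at 147 ± 22.8 and 17.6 ± 8.95 CPM. Eomes was thus measured at a higher level per length than Tbx21 in tumor-free libraries, with no overlap, as was the case in the lymphatic (189 ± 9.19 against 108 ± 18.8) and the hematogenous libraries (121 ± 21.7 against 67.7 ± 13.8). In hematogenous libraries Ets1, at 178 ± 30.0 CPM per kb, stood above Eomes in mean level, the ranges of these genes overlapping (136 to 204 and 97.4 to 150 CPM per kb). Zfp683 was the last of the 10 in both models.

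**Figure D2:**
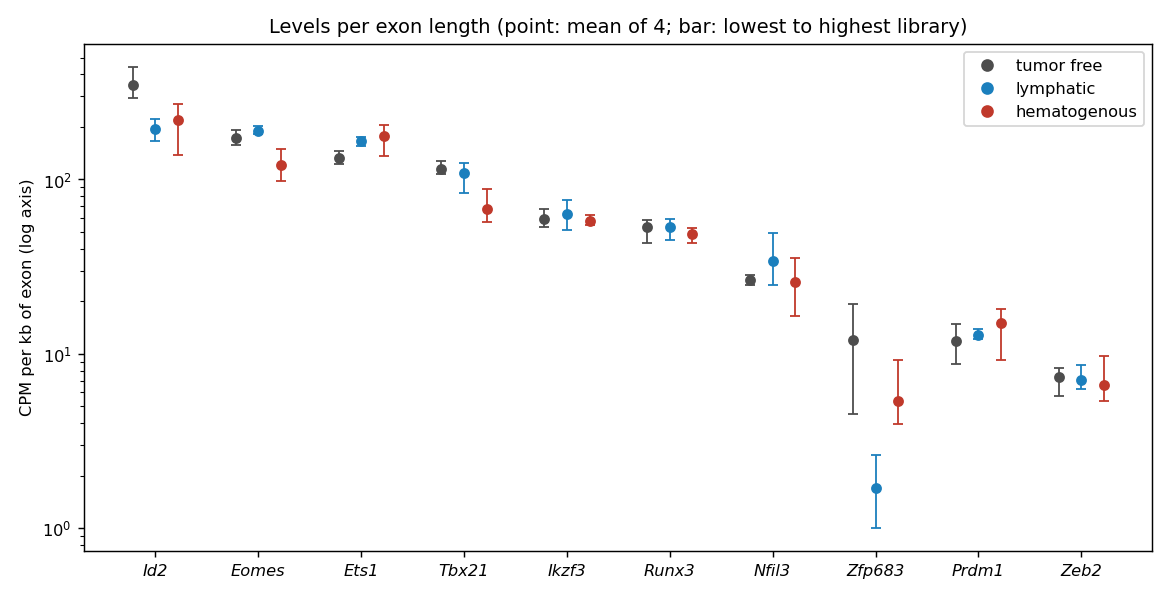
CPM per kb of exon (exons of all transcripts merged), on a log axis, of the 10 factor genes ordered by their tumor-free mean. Points are means of 4 libraries and bars run from the lowest to the highest library. Id2 has the highest mean in every group, and its range overlaps those of Eomes and Ets1 in both models. Zfp683 spans the widest range between group means on the log axis, from 12.0 in tumor-free to 1.69 CPM per kb in lymphatic libraries.

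The first comparison asked how the factors differed between NK cells of lymphatic-model nodes and of tumor-free nodes. The mRNA of Zfp683 and of Id2 was lower in the lymphatic libraries, and no factor was called higher. Of the 10 factors 2 were called, both lower, where 2.74% of all tested genes were called in either direction, 2.32% higher and 0.418% lower. The same 2 genes were lower in every lymphatic than in every tumor-free library, as were 2.24% of all tested genes. The median log2 fold change of the 10 was 0.04, against 0.08 over all tested genes.

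Zfp683 stood at 6.66, 28.4, 16.3 and 19.0 CPM in tumor-free replicates 1 to 4 and at 2.38, 1.48, 3.89 and 2.19 CPM in lymphatic replicates 1 to 4. Every lymphatic library lay below every tumor-free library, although tumor-free replicate 1 was far under the other tumor-free libraries. The log2 fold change was −2.83 (SE 0.46, with an adjusted p of 0.00116 in edgeR), and it ran from −3.14 to −2.53 with each of the 12 libraries left out in turn. These levels rest on 52 to 382 counts per library, the fewest of the 10 factors.

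Id2 encodes an inhibitor that binds E proteins, the basic helix-loop-helix factors of T and B cell fate, and keeps them from DNA. It stood at 861, 1076, 739.7 and 711 CPM in tumor-free and at 404, 541, 443 and 504 CPM in lymphatic replicates 1 to 4. The groups did not overlap. The log2 fold change was −0.84 (SE 0.17, with an adjusted p of 0.00948 in edgeR). With the mean of the B cell markers as a covariate the call was lost (log2 fold change −0.56, edgeR adjusted p = 0.178), and B cell markers were themselves higher on average in the lymphatic libraries (462 ± 232 against 240 ± 95.2 CPM, exact permutation test, two-sided p = 0.114, adjusted p = 0.161). Other marker sums were also higher in all lymphatic than in all tumor-free libraries. They were 1463 to 1760 against 1189 to 1266 CPM for 20 myeloid markers, 255 to 299.9 against 214 to 245 CPM for 8 plasma cell markers and 162 to 174 against 113 to 129 CPM for 10 markers of stroma and endothelium (each two-sided exact permutation p = 0.0286, adjusted p = 0.0762 over 24 comparisons). Much of the myeloid sum was Itgax, which NK cells also express (872 ± 78.0 CPM in tumor-free and 1207 ± 177 in lymphatic libraries), and most of the stroma and endothelium sum was Pecam1 (116 ± 5.99 and 168 ± 6.22 CPM). Most of the plasma cell sum was Txndc5 (152 ± 14.0 and 163 ± 8.74 CPM) and Xbp1 (79.6 ± 10.4 and 85.3 ± 24.4 CPM). Neither of them was called, while Irf4 was called higher (2.22 ± 2.32 and 16.0 ± 5.07 CPM). Txndc5 and Xbp1 are named here after their values were seen. Zfp683 stayed called with the B cell covariate (log2 fold change −2.69, edgeR adjusted p = 0.00901). Beyond that covariate, the part of any of these markers in the falls of Zfp683 and Id2 was not tested.

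The T-box genes did not pass the test in this comparison. Eomes stood at 651, 795, 722 and 699.6 CPM in tumor-free and at 759, 839, 790.5 and 758 CPM in lymphatic replicates 1 to 4 (log2 fold change 0.13, SE 0.12, with an adjusted p of 0.727 in edgeR). Tbx21 stood at 269, 287, 316 and 273 CPM in tumor-free and at 207, 309, 301 and 262 CPM in lymphatic replicates 1 to 4 (log2 fold change −0.09, SE 0.15, with an adjusted p of 0.875 in edgeR). For both genes the groups overlapped. A p above the threshold does not show that levels were alike.

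Ets1, an ETS family factor of early NK development that T and B cells also express, was the 1 factor with every lymphatic library above every tumor-free library, while 7.66% of all tested genes showed this. Its values were 1085, 1040.4, 1240.4 and 1142 CPM in tumor-free and 1418, 1315, 1395 and 1493 CPM in lymphatic replicates 1 to 4. The difference did not pass (log2 fold change 0.32, SE 0.13, with an adjusted p of 0.232 in edgeR).

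The 5 remaining factors, Prdm1, Zeb2, Nfil3, Ikzf3 and Runx3, had log2 fold changes between −0.06 and 0.37, with SEs of 0.12 to 0.21 and edgeR adjusted p of 0.504 to 0.992. Nfil3, a basic leucine zipper factor needed for NK development, was the most spread of them in the lymphatic group, at 66.1, 99.8, 50.4 and 59.3 CPM in replicates 1 to 4, against 50.1 to 57.6 CPM in tumor-free libraries. Lymphatic replicate 2 gave the highest of these values. Runx3, a Runt family factor, was at 267 ± 34.8 CPM in tumor-free and 266 ± 29.2 CPM in lymphatic libraries.

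The second comparison set the hematogenous model against the tumor-free nodes. Both T-box genes, Eomes and Tbx21, were lower, as was Id2, and Ets1 was higher. Of the 10 factors 4 were called, 3 lower and 1 higher, where 16.4% of all tested genes were called in either direction, 6.87% lower and 9.52% higher. The median log2 fold change of the 10 was −0.14, against 0.08 over all tested genes. Without hematogenous replicate 1 the count was 6, and without tumor-free replicate 2 it was 2. Those 3 lower genes also had every hematogenous library below every tumor-free library, as did 8.01% of all tested genes.

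Eomes stood at 621, 478, 503 and 405 CPM in hematogenous replicates 1 to 4, against 651 to 795 CPM in tumor-free libraries. Hematogenous replicate 1 lay close under the lowest tumor-free library and the other 3 lay well below. The log2 fold change was −0.51 (SE 0.13, with an adjusted p of 0.00857 in edgeR), or −0.63 without hematogenous replicate 1 (edgeR adjusted p = 0.0017). In the annotation used, 2.84% of the exon bases of Eomes lie opposite exons of another gene, and the strand setting of the counting is not given.

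Tbx21 stood at 218, 162, 152 and 142 CPM in hematogenous replicates 1 to 4, against 269 to 316 CPM in tumor-free libraries. Replicate 1 was again the highest of its group. Here the log2 fold change was −0.77 (SE 0.15, with an adjusted p of 0.00173 in edgeR), or −0.91 without that replicate (edgeR adjusted p = 0.000347). Both T-box genes were called with each of the 12 libraries left out in turn and under all 12 other settings.

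Since Eomes and Tbx21 moved together and Id2 fell in both models, the 250 bases before their start sites are shown, from RefSeq on GRCm38.p6, an older build than that of the counts. Capitals mark letters that match a searched motif. Promoters were at hand for 7 of the 10 factors, 11 windows in all.
Eomes, chr9:118477939-118478188, plus strand: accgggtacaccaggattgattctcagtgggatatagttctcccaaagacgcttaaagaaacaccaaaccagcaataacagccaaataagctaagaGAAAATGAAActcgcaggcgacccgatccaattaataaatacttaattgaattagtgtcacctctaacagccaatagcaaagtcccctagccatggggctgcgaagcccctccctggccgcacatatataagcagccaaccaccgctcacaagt
Tbx21, chr11:97115332-97115581, minus strand: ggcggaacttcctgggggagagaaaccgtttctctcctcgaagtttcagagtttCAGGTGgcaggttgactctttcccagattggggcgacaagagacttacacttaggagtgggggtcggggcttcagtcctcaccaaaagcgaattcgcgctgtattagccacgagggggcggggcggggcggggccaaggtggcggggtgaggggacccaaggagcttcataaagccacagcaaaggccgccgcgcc
Id2, chr12:25096093-25096342, minus strand: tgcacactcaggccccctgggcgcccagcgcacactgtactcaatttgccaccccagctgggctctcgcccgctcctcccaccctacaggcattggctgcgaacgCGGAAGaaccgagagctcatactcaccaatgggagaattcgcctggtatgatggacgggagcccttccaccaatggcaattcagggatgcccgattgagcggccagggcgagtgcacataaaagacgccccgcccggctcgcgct

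The 7 motifs searched on both strands were TCACAC (T-box), TGTGGT (RUNX), CGGAAG (ETS), CACCTG (the E-box bound by ZEB factors), the interferon-stimulated response element (GAAA, any 2 bases, GAAA), TTCNNNGAA (STAT) and TTANNTAA (NFIL3). The Eomes window held 1 match, to the interferon-stimulated response element, which 2.98% of 32851 promoter windows of that length hold. In the Tbx21 window the match was the E-box, held by 17.2% of windows, and in the Id2 window the ETS motif, held by 13.6%. The T-box letters were in none of the 11 windows of the factors and in 12.3% of all windows. A match is a description of letters and not a site.

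Id2 stood at 339, 599.7, 528 and 659 CPM in hematogenous replicates 1 to 4, all below the tumor-free range of 711 to 1076 CPM. Its log2 fold change was −0.67 (SE 0.17, with an adjusted p of 0.0125 in edgeR). The call was lost without tumor-free replicate 2, which held the highest value (log2 fold change −0.53, edgeR adjusted p = 0.0556), and with the B cell covariate (log2 fold change −0.45, edgeR adjusted p = 0.1).

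Ets1 stood at 1154, 1645, 1733 and 1505 CPM in hematogenous replicates 1 to 4. Replicates 2 to 4 lay above the tumor-free range of 1040.4 to 1240.4 CPM and replicate 1 lay within it. The log2 fold change was 0.42 (SE 0.13, with an adjusted p of 0.026 in edgeR), or 0.54 without hematogenous replicate 1 (edgeR adjusted p = 0.00297). The call was lost without any one of tumor-free replicates 1 and 2, lymphatic replicate 4 and hematogenous replicates 2 and 3 (highest edgeR adjusted p = 0.0908, log2 fold change 0.35) and with the B cell covariate (edgeR adjusted p = 0.0913).

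Zfp683 stood at 13.5, 5.80, 6.15 and 6.06 CPM in hematogenous replicates 1 to 4. Replicate 1 lay within the tumor-free range of 6.66 to 28.4 CPM and the others lay just under its lowest library. The difference did not pass (log2 fold change −1.16, SE 0.44, with an adjusted p of 0.075 in edgeR). It passed in 2 of 12 fits with a library left out, namely without hematogenous replicate 1 (log2 fold change −1.54, edgeR adjusted p = 0.0319) and without tumor-free replicate 1, the lowest of that group (log2 fold change −1.43, edgeR adjusted p = 0.0251). It was smallest without tumor-free replicate 2, the highest of that group (log2 fold change −0.82, edgeR adjusted p = 0.247). Of 12 other settings it passed in 2, with DESeq2 (DESeq2 adjusted p = 0.0455) and with voom (limma adjusted p = 0.0243).

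Prdm1 stood at 51.4, 94.0, 101 and 89.3 CPM in hematogenous replicates 1 to 4, against 57.5, 49.0, 76.4 and 82.2 CPM in tumor-free replicates. Hematogenous replicates 2 to 4 were above all tumor-free libraries, and replicate 1 was close to the lowest of them. The difference did not pass (log2 fold change 0.34, SE 0.19, with an adjusted p of 0.256 in edgeR), but it passed without hematogenous replicate 1 (log2 fold change 0.52, edgeR adjusted p = 0.0393).

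Zeb2 stood at 193, 114, 107 and 116 CPM in hematogenous replicates 1 to 4 and at 158, 114, 166 and 149 CPM in tumor-free replicates. Hematogenous replicate 1 gave the highest Zeb2 value of all 12 libraries, and its group otherwise lay at the low end of the tumor-free range. The log2 fold change was −0.15 (SE 0.17, with an adjusted p of 0.622 in edgeR), or −0.38 without that replicate (edgeR adjusted p = 0.0911). Exons of an antisense gene, Zeb2os, cover 3.27% of the exon bases of Zeb2.

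Nfil3, Ikzf3 and Runx3 had log2 fold changes of −0.03, −0.03 and −0.13, with edgeR adjusted p of 0.946, 0.9 and 0.543. Ikzf3, which encodes the zinc finger factor Aiolos of late NK maturation and is also a B cell factor, stood at 506 ± 29.5 CPM in hematogenous and 517 ± 55.5 CPM in tumor-free libraries. Nfil3 ranged from 33.6 CPM in replicate 1 to 71.6 CPM in replicate 4 of the hematogenous group, on both sides of the narrow tumor-free range.

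**Figure D3:**
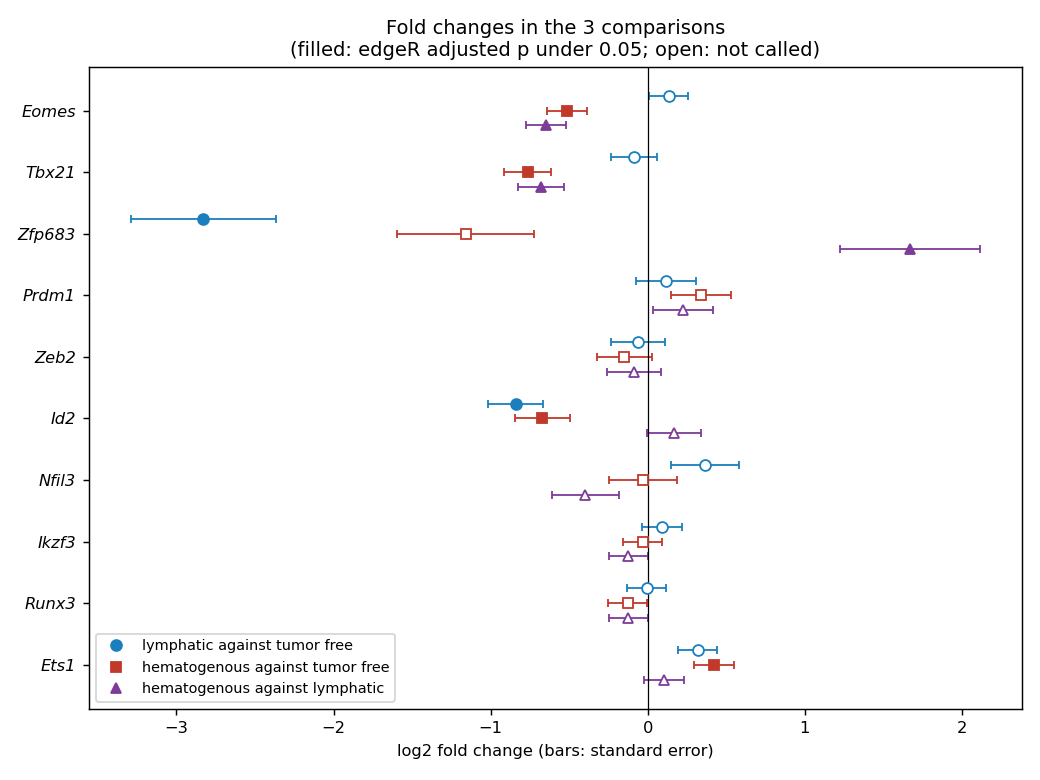
Log2 fold change of each factor gene in the 3 comparisons, with standard errors as bars; filled symbols passed the edgeR test at an adjusted p under 0.05 and open symbols did not. Zfp683 is called in the lymphatic model and between the models, Eomes and Tbx21 in both comparisons that involve the hematogenous model, and Id2 in both models against tumor free.

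The third comparison, of the hematogenous with the lymphatic model, tests whether the models differ; the comparisons of each model with tumor free share the same tumor-free libraries. Eomes and Tbx21 were lower and Zfp683 was higher in the hematogenous libraries. Of the 10 factors 3 were called, where 8.85% of all tested genes were called in either direction, 2.93% higher and 5.92% lower. Without hematogenous replicate 1 the count was 2. Eomes differed by a log2 fold change of −0.65 (SE 0.13, with an adjusted p of 0.00348 in edgeR), and the hematogenous range of 405 to 621 CPM lay wholly below the lymphatic range of 758 to 839 CPM. Tbx21 differed by a log2 fold change of −0.68 (SE 0.15, with an adjusted p of 0.00709 in edgeR), with hematogenous replicate 1 (218 CPM) above lymphatic replicate 1 (207 CPM) and no other overlap.

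Zfp683 was higher by a log2 fold change of 1.67 (SE 0.45, with an adjusted p of 0.0233 in edgeR), at 5.80 to 13.5 CPM in hematogenous and 1.48 to 3.89 CPM in lymphatic libraries, without overlap. Among all tested genes 9.17% were higher without overlap in this comparison and 11.3% lower. The call was lost without hematogenous replicate 1 (log2 fold change 1.32, edgeR adjusted p = 0.0956), without lymphatic replicate 1, 2 or 4 (highest edgeR adjusted p = 0.0985, log2 fold change 1.47) and with every library thinned to the depth of the shallowest (log2 fold change 1.40, edgeR adjusted p = 0.087).

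For Id2, which fell in both models, the difference between the models was 0.17 (SE 0.17, with an adjusted p of 0.657 in edgeR), and for Ets1 it was 0.10 (SE 0.12, with an adjusted p of 0.716 in edgeR). The other 5 factors had log2 fold changes of −0.40 to 0.22 between the models and edgeR adjusted p of 0.304 to 0.843.

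Ratios of a pair of factors within a library do not depend on scaling. The log2 ratio of Zfp683 to Zeb2 counts was −3.22 ± 1.06 (SD, n = 4) in tumor-free, −5.90 ± 0.43 in lymphatic and −4.13 ± 0.21 in hematogenous libraries. Every lymphatic library (−6.48 to −5.46) lay below every library of the other groups (lowest −4.57). The log2 ratio of Prdm1 to Zfp683 was 2.06 ± 0.96 in tumor-free, 4.94 ± 0.55 in lymphatic and 3.46 ± 1.03 in hematogenous libraries. Hematogenous replicate 1, at 1.93, lay within the tumor-free range of 0.79 to 3.11, and hematogenous replicates 2 to 4 lay at 3.88 to 4.03. For Eomes to Tbx21 the log2 ratio was 1.32 ± 0.12 in tumor-free, 1.56 ± 0.22 in lymphatic and 1.58 ± 0.10 in hematogenous libraries. All hematogenous libraries (1.51 to 1.73) were above all tumor-free ones (1.19 to 1.47). No test was run on these ratios.

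**Figure D4:**
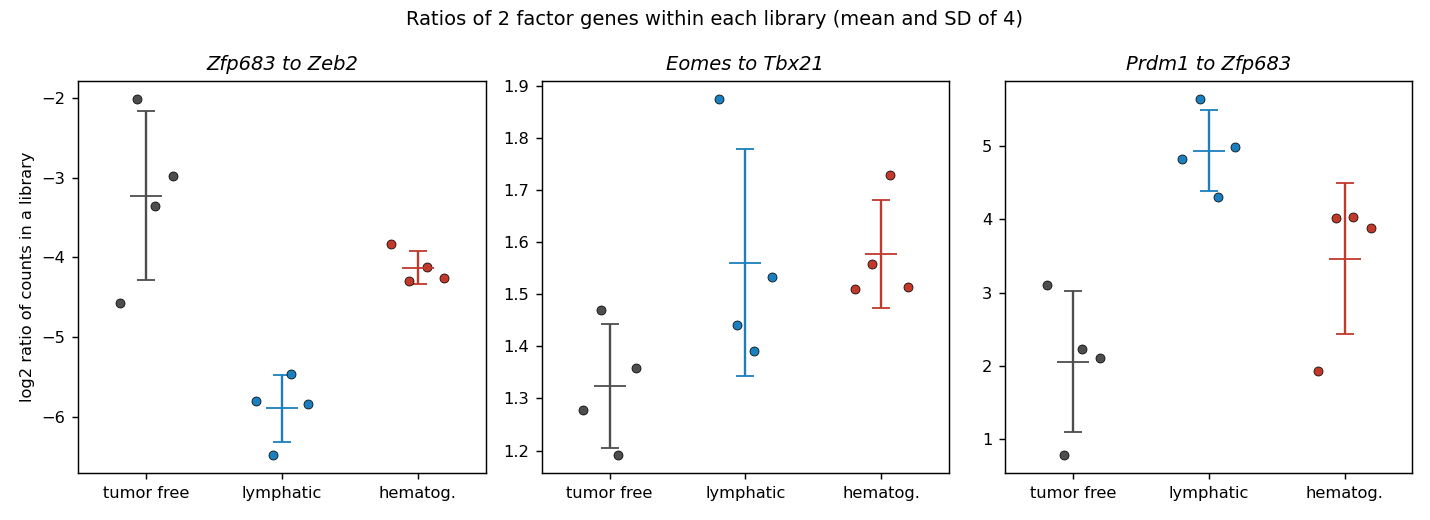
Log2 ratio of the counts of 2 factor genes in each library, with means and SDs of 4 per group. The Zfp683 to Zeb2 ratio is lowest in the lymphatic libraries (−5.90 ± 0.43), and the Eomes to Tbx21 ratio is higher in all hematogenous (1.51 to 1.73) than in all tumor-free libraries.

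Markers of cell type moved with the hematogenous group as well. The summed NK markers did not overlap between hematogenous and tumor-free libraries (two-sided exact permutation p = 0.0286, which is the lowest value possible with 4 libraries a group, adjusted p = 0.0762 over 24 comparisons), and neither did the T cell markers (exact permutation p = 0.0286, adjusted p = 0.0762). Over all tested genes 9.52% were called higher and 6.87% lower in this comparison. Of the 14 T cell markers 5 were called higher, among them Cd8a, a T cell coreceptor gene (18.8 ± 8.12 CPM in tumor-free and 54.3 ± 10.7 in hematogenous libraries), and Trac, the constant region of the T cell receptor alpha chain (48.9 ± 19.4 and 93.4 ± 22.8 CPM). Lat (−0.39, SE 0.14) and Cd28 (−0.23, SE 0.15) were the 2 with log2 fold changes below 0, neither called. The highest member of the sum, Trbc2, was not called (182 ± 22.2 and 207 ± 45.1 CPM). Lat, Cd28 and Trbc2 are named after their values were seen. Of 17 myeloid markers tested, 9 were called higher and none lower by edgeR in the hematogenous against the tumor-free libraries. These included the receptor genes Csf1r (6.01 ± 4.35 CPM in tumor-free and 19.7 ± 7.39 in hematogenous libraries) and Csf3r (0.096 ± 0.19 and 7.52 ± 5.00 CPM), and Adgre1, the gene of F4/80 (0.35 ± 0.50 and 5.82 ± 1.37 CPM); Csf1r and Adgre1 are named after their values were seen. Another 6 of the 17 had log2 fold changes below 0, none of them called. C1qa (−1.54, SE 1.21) and C1qb (−0.99, SE 1.14) were among these 6 and are likewise named after their values were seen. The sum of all 20 myeloid markers, at 1030 to 1348 against 1189 to 1266 CPM, overlapped between the groups, with Itgax, at 700 ± 202 CPM in hematogenous libraries, its highest member. Clec9a, Cd14 and Clec4a3 had 0 counts in the tumor-free group. Of the 12 markers of ILC2 and ILC3, which summed to 207 to 301 against 142 to 212 CPM, Il13, Il5, Il23r, Il22 and Il17a had 0 counts in all tumor-free libraries, and Il13 and Il17a also in all hematogenous libraries. Among the 7 of them that were tested, 4 were called higher and 1 lower. Most of the sum was Kit, called higher (93.5 ± 19.8 CPM in tumor-free and 161 ± 43.8 in hematogenous libraries), and Gata3. Gata3 was the marker called lower (88.5 ± 10.1 and 61.9 ± 7.24 CPM) and is named after its value was seen. The 8 plasma cell markers summed to 186 to 229 CPM in hematogenous and 214 to 245 CPM in tumor-free libraries. The part of these markers in the levels of the factors was not tested.

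The factors were therefore also set against 6 NK receptor genes (Ncr1, Klrb1c, Klrd1, Klrk1, Klre1 and Cd244a), chosen after the values were seen. Their summed level was 5760 to 6651 CPM in tumor-free, 5062 to 5516 CPM in lymphatic and 4353 to 5340 CPM in hematogenous libraries. The sum was thus lower in all libraries of either model than in all tumor-free libraries. That by itself raises every gene of the models on this scale. The share of all tested genes without overlap on this scale was not computed. The size of the differences depends on the genes chosen. All 13 NK markers summed to a mean of 16607 CPM in tumor-free and 11192 CPM in hematogenous libraries, and the 6 to 6178 and 4863 CPM. Left out were Gzma, Gzmb, Prf1, Nkg7, Il2rb, Fcer1g and Tyrobp, all with log2 fold changes below 0 in the hematogenous model. A scale of all 13 was not computed. On this scale the log2 difference between hematogenous and tumor-free means was −0.18 for Eomes, −0.43 for Tbx21 and −0.35 for Id2, and for each of these the groups overlapped. Ets1 was 0.75 higher, in all hematogenous over all tumor-free libraries. In the lymphatic model the log2 difference was −2.51 for Zfp683 and −0.60 for Id2, both without overlap. Eomes (0.36), Nfil3 (0.54) and Ets1 (0.55) were higher in all lymphatic than in all tumor-free libraries. Of these only Ets1 was also higher without overlap in CPM. Between the models Eomes (−0.54) was lower and Zfp683 (1.77) higher in all hematogenous libraries, while Tbx21 (−0.56) overlapped in range.

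**Figure D5:**
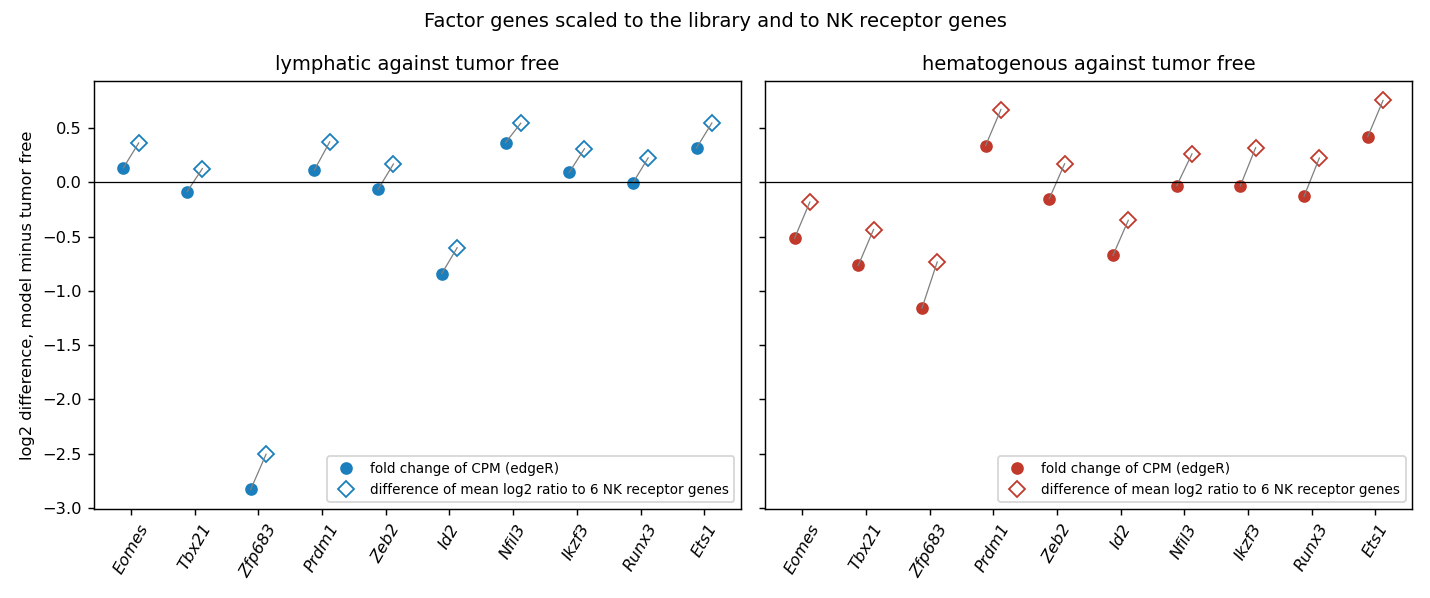
Log2 difference of each model from tumor free for the 10 factor genes, scaled to the library (filled circles, edgeR fold change of CPM) and to 6 NK receptor genes (open diamonds, difference of group means of log2 ratios). In the hematogenous model Eomes lies at −0.51 on the first scale and at −0.18 on the second, and Ets1 at 0.42 and 0.75.

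Genes that work with or against the factors were taken from a list of 18 partners and opponents, of which 17 were tested. For this and the next lists, the shares of all tested genes were 2.32% called higher and 0.418% lower in the lymphatic model. They were 9.52% and 6.87% in the hematogenous model, and 2.93% and 5.92% between the models. In the lymphatic model 3 of the 17 were higher and none lower (median log2 fold change 0.16). Bach2, a repressor that keeps lymphocytes in a resting state, rose from 58.7 ± 11.8 to 96.9 ± 8.94 CPM (a log2 change of 0.72, SE 0.15, with an adjusted p of 0.00948 in edgeR). Bcl6, which represses Prdm1 in B and T cells, rose by 0.70 (SE 0.18) and Ikzf2, which encodes the Ikaros relative Helios, by 0.70 (SE 0.18). In the hematogenous model 3 were higher and 3 lower (median 0.07). Ikzf2 rose from 62.9 ± 8.95 to 153 ± 16.7 CPM (a log2 change of 1.28, SE 0.18, with an adjusted p of 0.000166 in edgeR) and Bach2 by 0.90 (SE 0.15).

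Among the E proteins that Id2 binds, Tcf4 rose by 0.67 (SE 0.16) in the hematogenous model. Tcf3 fell by 0.70 (SE 0.19) there, and Tcf12 had a log2 change of −0.03 (SE 0.11). Cbfb, the shared partner of RUNX factors, fell by 0.44 (SE 0.12), while Runx3 itself did not pass. Fli1, an ETS relative of Ets1, fell by 0.41. Tcf3, Tcf12, Cbfb and Fli1 are named after their values were seen. Between the models Ikzf2 was higher (0.58, SE 0.18), Ikzf1, the gene of Ikaros, was lower (−0.39, SE 0.10) and Bcl6 was lower (−0.65, SE 0.18) in the hematogenous libraries, with no other of the 17 called.

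Of 29 other genes of transcription factors and chromatin regulators of the NK lineage 28 were tested. In the lymphatic model Myb rose by 1.42 (SE 0.17) and Bhlhe40 by 1.52 (SE 0.19), and none fell. In the hematogenous model 8 rose and 3 fell, where 9.52% of all tested genes were called higher and 6.87% lower. Rora, a nuclear receptor gene of innate lymphoid cells, rose from 25.8 ± 5.88 to 93.3 ± 46.6 CPM (a log2 change of 1.85, SE 0.33, with an adjusted p of 0.0014 in edgeR), Kmt2a by 1.08 (SE 0.17) and Klf13 by 0.68 (SE 0.12). Between the models 4 were higher and 3 lower in the hematogenous libraries, with Rora at 1.94 (SE 0.33), Klf13 at 0.45 (SE 0.12) and Irf2 at −0.51 (SE 0.12).

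Genes of mature NK cells, 20 in all and all tested, hold many that Eomes, T-bet and Zeb2 are known to support. In the lymphatic model 1 rose and 1 fell. Irf8 rose by 1.34 (SE 0.23), and Klrb1c, the gene of NK1.1, fell by 0.54 (SE 0.14). In the hematogenous model 8 fell and none rose (median −0.24), where 6.87% of all tested genes were called lower and 9.52% higher. The part of the falls of Eomes and Tbx21 in this was not tested. Ncr1, the gene of NKp46, fell from 1372 ± 101 to 645 ± 147 CPM (a log2 change of −1.09, SE 0.14, with an adjusted p of 7.89e-05 in edgeR), the granzyme gene Gzma by 1.20 (SE 0.18) and the perforin gene Prf1 by 1.06 (SE 0.17). Between the models 7 were lower and 1 higher in the hematogenous libraries, with Prf1 at −0.95 (SE 0.17), Ncr1 at −0.69 (SE 0.14) and Gzma at −0.79 (SE 0.17). The gene that was higher was Cx3cr1, a chemokine receptor of mature NK cells, at 0.97 (SE 0.23), named after its value was seen.

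Genes of ILC1 and of residency, 22 in all and all tested, moved in both directions beside Zfp683. In the lymphatic model 5 rose and 2 fell (median −0.26). Itga1, the gene of the residency integrin CD49a, fell from 64.2 ± 9.93 to 24.1 ± 5.58 CPM (a log2 change of −1.41, SE 0.20, with an adjusted p of 0.000263 in edgeR). Rgs2, a regulator of G protein signalling, rose by 1.70 (SE 0.24) and Cd69, which is also an early activation gene, by 1.41 (SE 0.23). In the hematogenous model 6 rose and 7 fell (median 0.11), where 9.52% of all tested genes were called higher and 6.87% lower. Il7r, the interleukin-7 receptor gene, which T cells and other innate lymphoid cells also express, rose from 283 ± 19.4 to 1329 ± 437 CPM (a log2 change of 2.23, SE 0.22, with an adjusted p of 1.35e-05 in edgeR), and the integrin gene Itgb3 rose by 1.48 (SE 0.24). The carbonic anhydrase gene Car2 fell from 257 ± 56.4 to 104 ± 16.1 CPM. Between the models 4 were higher and 4 lower in the hematogenous libraries, among them Il7r at 2.21 (SE 0.22), Car2 at −1.20 (SE 0.16) and the chemokine gene Xcl1 at −2.39 (SE 0.34).

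The genes whose log2 CPM followed a factor most closely over the 12 libraries were also read out, as a description; these points share 3 groups and their differences in depth. Among 9404 genes with a mean of at least 5 CPM and a proper symbol, the closest to Eomes were Cdk2ap1 (Pearson r = 0.96), Klhl30 (0.93) and Copa (0.92). For Tbx21 they were Prag1 (0.97), Cdk2ap1 (0.95) and the integrin gene Itgb7 (0.95). Those closest to Zfp683 were Rnf6 (0.92), Lat (0.92) and Castor1 (0.91), and those closest to Zeb2 were Rad9a (0.91), Acap1 (0.87) and Eml3 (0.86). Among the 10 factors themselves the closest pair was Eomes and Tbx21 (r = 0.90), followed by Prdm1 and Ets1 (0.80) and Zeb2 and Runx3 (0.69). The most opposed pair was Tbx21 and Ets1 (−0.67).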

How the data were processed

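RNA from NK cells sorted from lymph nodes was sequenced in 12 libraries as stranded single-end reads of 120 bp, per the labels' protocols. The authors deposited raw counts of reads for each gene, made with HISAT2 2.1.0 and HTSeq 2.0.2 on GRCm39, per the submitters' processing notes; neither the annotation release nor the strand setting is stated there. The 5 summary lines of each file were left out, and reads in no annotated feature were 11.4% to 24.6% of the total. Symbols came from GENCODE M21 and matched 91.8% of gene IDs (99.5% of counts). Exon lengths came from the same older release, with the exons of all transcripts of a gene merged.

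Groups came from the sample titles. All 12 libraries entered 1 edgeR 4.0.16 quasi-likelihood model of group (R 4.3.3, robust, TMM, default expression filter, 9 residual degrees of freedom), and p-values were adjusted over 16016 genes. Standard errors (SE) were taken from the fold change and the square root of its F statistic. Summed markers were compared with exact permutation tests in scipy 1.17.1. Each factor had at least 52 counts in every library. In simulated counts for 16016 genes with 200 changed, 40% of 2-fold and 63% of 4-fold changes were recovered for the lymphatic against tumor-free comparison, 42% and 61% for the hematogenous against tumor-free and 47% and 55% between the models, with 4, 5 and 8 false calls among 107, 108 and 110. The changed genes were drawn at random from all tested genes. In mean CPM Zfp683 ranked at 42.8% of tested genes and the other factors at 74.8% to 99.7%. These rates therefore need not hold for the factors.

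The members and gene lists were chosen with earlier results of these data known. Named were all 10 factors, the called genes of lowest adjusted p in the other lists and comparisons (at most 3 from a list, 2 from a marker list), and the 3 genes most like Eomes, Tbx21, Zfp683 and Zeb2. Alternatives covered scaling, filters, DESeq2 1.42.0, voom in limma 3.58.1, 2 groups alone, a replicate block, B cell terms, equal depth and leaving out each library.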

Additional observations from a re-analysis of the deposited data

Results flagged for a closer look

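In 3 of 30 sets of 4 values (10 factors in 3 groups) the highest library stood far from the others of its group, where chance flags about 1 set in 20. Zfp683 stood at 13.5 CPM in hematogenous replicate 1, against 5.80 to 6.15 CPM in the other hematogenous libraries. In the same library Zeb2 stood at 193 CPM, against 107 to 116 CPM in the others. Zeb2 also stood at 172 CPM in lymphatic replicate 3, against 126 to 133 CPM in the other lymphatic libraries.

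The models differed from each other, by edgeR's test of hematogenous against lymphatic libraries, in 3 factors. The log2 fold change was −0.65 for Eomes (adjusted p = 0.00348), −0.68 for Tbx21 (adjusted p = 0.00709) and 1.67 for Zfp683 (adjusted p = 0.0233). Without hematogenous replicate 1 these values were −0.73, −0.79 and 1.32 (edgeR adjusted p = 0.00137, 0.0025 and 0.0956).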

How the results depend on the processing

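Of 2 called factors in the lymphatic model, 1 was left with the B cell covariate, and of 4 in the hematogenous model, 2 were left with it. With each library left out in turn the number of called factors was 2 to 2, 2 to 6 and 2 to 3 in the lymphatic, hematogenous and between-model comparisons. Without tumor-free replicate 2 it was 2 in the hematogenous model. Called genes over the whole table numbered 439 for the lymphatic model (891 with DESeq2, 210 with the B cell covariate, 255 to 634 with libraries left out, the lowest without lymphatic replicate 4). They numbered 2625 for the hematogenous model (1288 with the covariate, 1760 to 3202 with libraries left out) and 1417 between the models (2169 with DESeq2, 2913 with voom and quality weights, 620 to 1572 with libraries left out, with 620 without lymphatic replicate 2 or hematogenous replicate 3 and 811 without hematogenous replicate 1). Factors not called changed sign near 0 in 17 cases. With each library left out the ranges of these log2 fold changes were, in the lymphatic model, −0.19 to 0.034 for Tbx21, −0.035 to 0.20 for Prdm1, −0.20 to 0.011 for Zeb2 and −0.13 to 0.076 for Runx3. In the hematogenous model they were −0.21 to 0.13 for Nfil3 (0.098 with voom and 0.042 with the B cell covariate) and −0.089 to 0.046 for Ikzf3. Between the models the range was −0.28 to 0.040 for Zeb2 (0.0051 with upper quartile scaling and 0.023 with library size alone). The cause was not tested. The replicate block kept the number of called factors at 2, 4 and 3; the replicate numbers are not said to pair libraries, and same-numbered libraries had correlations of deviations of −0.07 to 0.06. For ratios within a library the only alternatives were leaving out 1 library and adding 0.5 counts. By design neither can move a mean of 4 such ratios by 1 SD. Their stability was therefore not tested.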
